A study of Mus musculus with 9 samples.

Results

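The 10 genes described here regulate mitochondrial biogenesis, the coordinated production of respiratory chain proteins from the nuclear and the mitochondrial genome. They were chosen by symbol for that role: the coactivators Ppargc1a and Ppargc1b, the nuclear transcription factors Nrf1, Gabpa, Esrra and Yy1, and the mitochondrial transcription genes Tfam, Tfb1m, Tfb2m and Polrmt. All 10 symbols were found among the 27095 loci of the deposited table, and 9 of them reached a mean level of 1 FPKM over the groups, as did 15548 loci in all. FPKM are fragment counts divided by exon length and by the number of mapped fragments. Ppargc1b did not reach that level and is given by its values alone.

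RNA was sequenced from 9 wild-type C57BL/6 fetuses (C57BL/6J in the methods) taken on gestational day 17, with 3 animals in each of 3 groups. Control fetuses came from dams that received lactated Ringer's solution on gestational day 7. The exposed fetuses came from dams that received 2.9 g/kg EtOH intraperitoneally on that day. They were divided into EtOH-exposed unaffected animals and EtOH-exposed affected animals by the absence or presence of ocular, cortical and craniofacial defects. The tissue is named fetal brain by the labels and cortex by the methods. The table holds 1 FPKM value per group, taken by the authors' software over the 3 animals, so no difference below carries an error between animals and none was tested. In bulk tissue, fewer cells of a type and less RNA per cell cannot be told apart.

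Respiratory chain proteins are encoded mostly in the nucleus, with a small essential set on mitochondrial DNA. NRF-1 and GABP, the latter a complex of the DNA-binding subunit GABPA with a GABPB subunit, bind the promoters of many nuclear respiratory genes and of genes that act in mitochondrial transcription. The nuclear receptor ERRα (Esrra) and the zinc finger protein YY1 act beside them. The coactivators PGC-1α (Ppargc1a) and PGC-1β (Ppargc1b) have no DNA-binding specificity of their own and are recruited by these factors. In the matrix, TFAM bends and packages mitochondrial DNA, TFB2M helps the RNA polymerase POLRMT to open promoters, and TFB1M methylates the ribosomal RNA of the small mitochondrial ribosomal subunit.

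Part of this circuit can be read in the members' own promoters. RefSeq promoter windows (GRCm38.p6, from 250 bases before to 50 bases after the start site) were found for 9 of the 10 genes, all but Ppargc1b, and were searched on both strands for the NRF-1 letters GCATGCG, the GABP letters CCGGAAG, the YY1 letters AAGATGGC and the ERR letters TCAAGGTCA. The NRF-1 letters were present in 4 members (Gabpa, Tfb2m, Polrmt and Esrra) and in 3.58% of all 32851 promoter windows. The GABP letters were present in 3 members (Gabpa, Tfam and Polrmt) and in 8.86% of all windows. The YY1 letters were present in Gabpa, against 2.75% of all windows, and the ERR letters were found in no member and in 0.423% of all windows. The stretches below show these letters in capitals on the gene's own strand. Among the 9866 loci with at least 1 FPKM and a promoter window, 7.49% held the NRF-1 letters, 20.1% the GABP letters, 5.39% the YY1 letters and 0.294% the ERR letters. The stretches are given because they place Gabpa, Tfam, Tfb2m, Polrmt and Esrra both among the regulators and among the candidate targets of NRF-1 or GABP. Ppargc1a, Nrf1, Tfb1m and Yy1 held the letters of neither factor. A match of letters is a description and not a bound site, and related spellings were not searched.
Tfb2m, NRF-1 letters at position 14 from the start, chr1:179546245-179546274, minus strand: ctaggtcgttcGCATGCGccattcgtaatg
Esrra, NRF-1 letters at position -34, chr19:6921824-6921853, minus strand: ccccctgttttGCATGCGcaggccggcccc
Polrmt, NRF-1 letters in reverse at position -132, chr10:79746695-79746724, minus strand: gagtatttctgCGCATGCtctcttgccgcc
Polrmt, GABP letters in reverse at position -43, chr10:79746606-79746635, minus strand: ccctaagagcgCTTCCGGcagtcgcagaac
Tfam, GABP letters at position -47, chr10:71238073-71238102, minus strand: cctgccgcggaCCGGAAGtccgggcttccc
Gabpa, GABP letters in reverse at position -93, chr16:84835020-84835049, plus strand: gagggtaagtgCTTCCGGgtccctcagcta
Gabpa, YY1 letters in reverse at position -67, chr16:84835046-84835075, plus strand: gctaagactccGCCATCTTtcctacacttt
Gabpa, NRF-1 letters at position -7, chr16:84835106-84835135, plus strand: ctgcactgtacGCATGCGtattctggcctg

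The levels of the 10 genes, which FPKM gives per length, spanned from 0.192 FPKM for Ppargc1b to 37.3 FPKM for Yy1 in the control group. Yy1 was the highest in each of the 3 groups and Tfb2m the next, at 20.2 to 22.1 FPKM. Nrf1 and Tfam followed between 11.9 and 13.6 FPKM, and their order was reversed in the control group, where they stood at 12.5 and 12.6 FPKM. Gabpa and Esrra came next between 8.49 and 11.7 FPKM, and Esrra was above Gabpa in the unaffected group alone. Tfb1m, Polrmt, Ppargc1a and Ppargc1b then held the same order in each of the 3 groups. The coactivators were thus the lowest of the set: the mean level of Ppargc1a lay at percentile 18.4 of the loci with at least 1 FPKM, against percentile 83.6 for Yy1. With 1 value per group, whether neighbours such as Nrf1 and Tfam differ beyond the spread between animals was not tested.

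**Figure D1:**
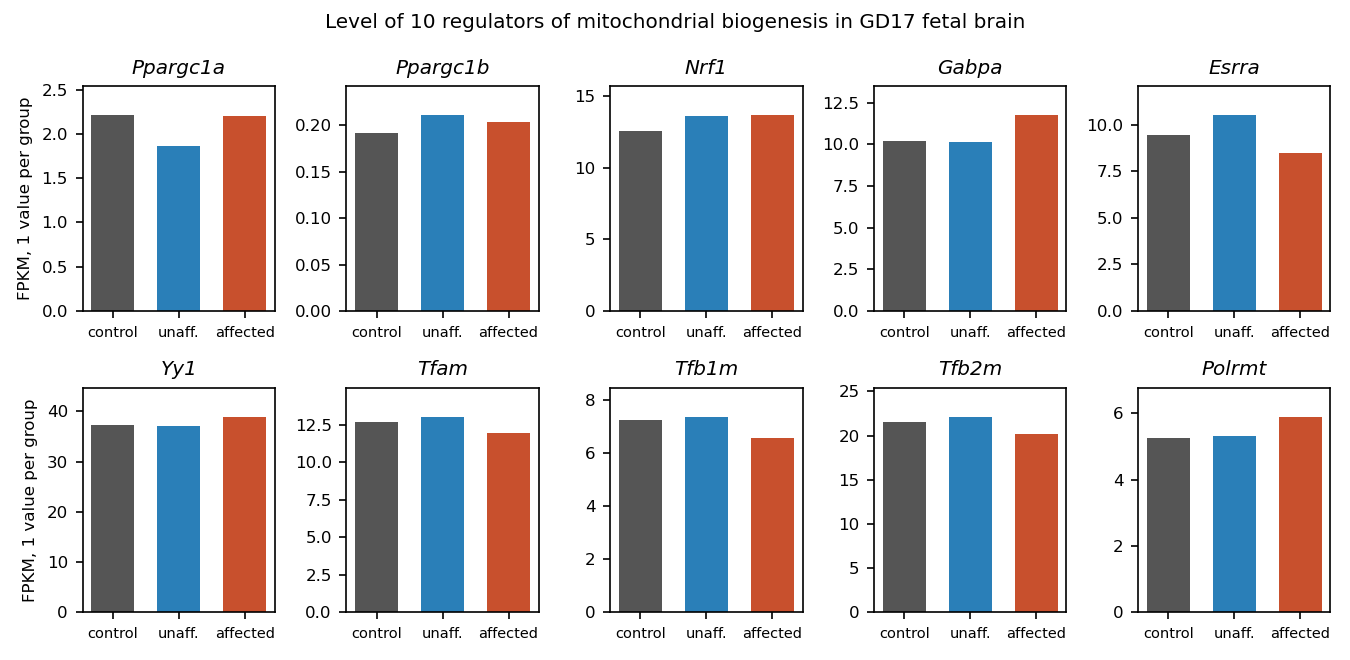
Level of each gene in FPKM (vertical axes, each starting at 0 and with its own scale) in the groups (control, exposed without defects, exposed with defects), as 1 bar per group without an error between animals. Bars of a gene are of similar height, with Esrra lowest in the affected group at 8.49 FPKM and Ppargc1a lowest in the unaffected group at 1.86 FPKM.

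The regulators differed little between affected and control offspring. Of the 9 genes with at least 1 FPKM, 4 were higher and 5 lower in the affected group, from a log2 ratio of -0.15 for Esrra to 0.20 for Gabpa, with a median of -0.0070. The median over all 15548 loci was 0.020. None of the 9 reached a ratio of 1.2-fold in this comparison, which 34.0% of all loci passed, 17.9% as higher and 16.0% as lower. The absolute log2 ratio of 8 of the 9 was below the median absolute ratio of all loci, 0.19. Among the 10137 loci within the range of mean FPKM of the 9, 30.6% passed 1.2-fold and the median absolute ratio was 0.18. These shares also differ with transcript length, as described below.

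Affected and unaffected offspring differed more widely across the transcriptome. Here 48.8% of all loci passed 1.2-fold, 25.5% as higher and 23.3% as lower in the affected group. Among the 9 regulators only Esrra passed, as lower, and the others lay between a log2 ratio of -0.17 for Tfb1m and 0.24 for Ppargc1a. The median of the 9 was 0.0043 beside 0.012 for all loci. Unaffected and control offspring were closest, with 17.3% of all loci past 1.2-fold, 7.48% as higher and 9.79% as lower. No regulator passed, and the 9 ratios ran from -0.25 for Ppargc1a to 0.15 for Esrra with a median of 0.023, beside 0.0073 for all loci. Within the range of mean FPKM of the 9, 45.8% of loci passed 1.2-fold in affected against unaffected and 13.2% in unaffected against control offspring. Each pair of these comparisons shares a group, so that a group value that is off by chance enters both.

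**Figure D2:**
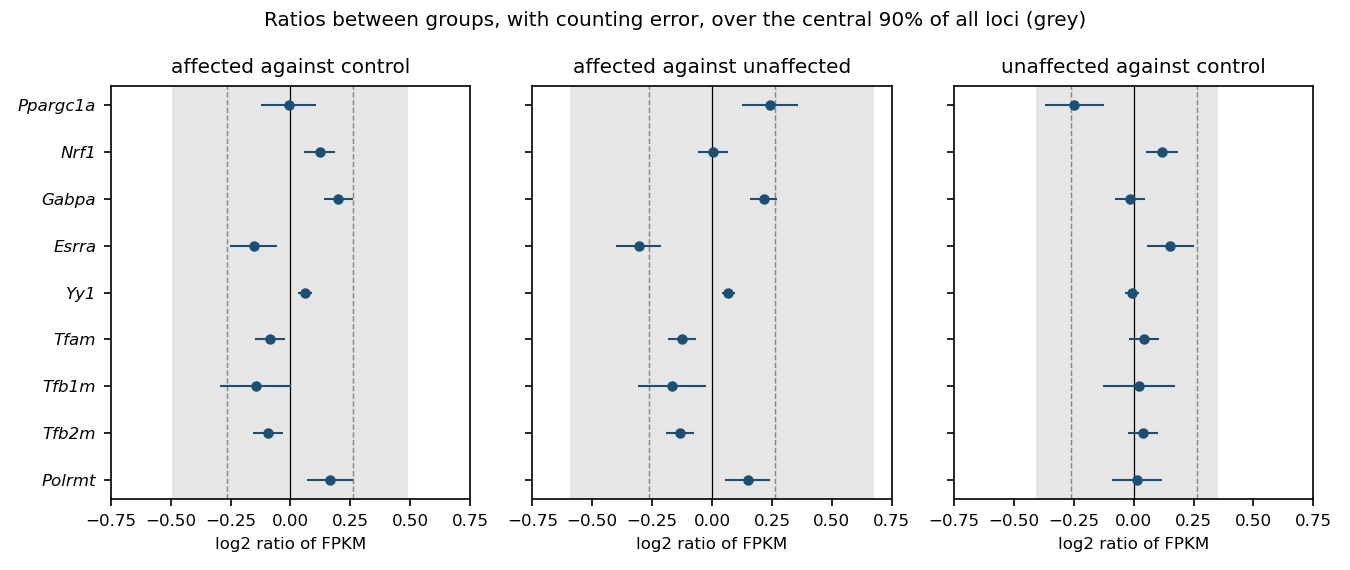
Log2 ratio of FPKM (horizontal axis) of the 9 regulators with at least 1 FPKM in the 3 comparisons, where bars are 95% intervals for counting error alone. Dashed lines mark 1.2-fold and grey the range from percentile 5 to percentile 95 of all loci, and Esrra at -0.31 in affected against unaffected offspring is the point beyond a dashed line.

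How many fragments stand behind a value was estimated from the smallest steps in the FPKM of lowly expressed single-exon genes, each step being 1 fragment in 1 library. The estimate gives a counting error for each ratio, which leaves out the differences between animals and holds only as far as the transcript length used is right. Among the 9 regulators, the counting error on the log2 scale ran from 0.014 for Yy1 to 0.077 for Tfb1m. The 95% counting interval of the ratio excluded 0 for 7 of 9 genes in affected against control, 8 of 9 in affected against unaffected and 3 of 9 in unaffected against control offspring. Sampling of fragments was therefore small beside most ratios between affected animals and the other groups, while the error between animals is not known.

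Ppargc1a encodes PGC-1α, the inducible coactivator of the family, and lies at chr5:51454250-51567726 (mm10, minus strand). Control offspring had 2.21 FPKM, unaffected offspring 1.86 FPKM and affected offspring 2.20 FPKM. The unaffected group stood below both others, which were nearly equal as deposited. The log2 ratio of unaffected against control was -0.25 (counting SE 0.064), at percentile 10.7 of all loci, and that of affected against unaffected was 0.24 (counting SE 0.060). Affected and control offspring differed by -0.0070 (counting SE 0.059), and by -0.20 once the trend by transcript length described below was subtracted. With it subtracted affected against unaffected offspring stood at -0.050, and at 0.011 with the trend by median transcript length. Both values lay within the counting SE of 0.060, so that they do not order those 2 groups. Ppargc1b, for PGC-1β (chr18:61298136-61400431, minus strand), was measured at 0.192, 0.211 and 0.204 FPKM in control, unaffected and affected offspring. These values correspond to an estimated 51.0, 62.1 and 72.5 fragments over the 3 libraries of a group. Its log2 ratios of 0.089, -0.046 and 0.14, in affected against control, affected against unaffected and unaffected against control offspring, lay within their counting errors of 0.26, 0.25 and 0.27. The level of Ppargc1a was 11.5 times that of Ppargc1b in control, 8.83 times in unaffected and 10.8 times in affected offspring.

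Pprc1 encodes the third member of the coactivator family, PRC, and was more abundant than either. It stood at 6.26 FPKM in control, 5.82 FPKM in unaffected and 7.89 FPKM in affected offspring. The affected group was the highest, by a log2 ratio of 0.34 over control and 0.44 over unaffected offspring. With the length trend subtracted these were 0.19 and 0.23, inside 1.2-fold. Pprc1 thus exceeded Ppargc1a 2.83 times in control, 3.13 times in unaffected and 3.59 times in affected offspring.

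Nrf1, for NRF-1 (chr6:30047988-30153458, plus strand), was measured at 12.5 FPKM in control, 13.6 FPKM in unaffected and 13.6 FPKM in affected offspring. Both exposed groups stood above control, by a log2 ratio of 0.12 (counting SE 0.034) in unaffected and 0.12 (counting SE 0.033) in affected offspring. Between the exposed groups the ratio was 0.0043 (counting SE 0.031), the smallest difference of the 9 genes in that comparison as deposited. It became -0.043 with the trend by longest transcript subtracted and 0.14 with that by median transcript length.

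Gabpa encodes the DNA-binding subunit of GABP (chr16:84834925-84863779, plus strand). Control offspring had 10.2 FPKM, unaffected offspring 10.1 FPKM and affected offspring 11.7 FPKM. The affected group was the high one, with a log2 ratio of 0.20 (counting SE 0.030) against control and 0.21 (counting SE 0.029) against unaffected offspring, the highest positive ratio of the 9 in the first comparison. With the length trend subtracted these ratios became 0.052 and 0.015. Gabpa shares its locus with Atp5j, a subunit of the ATP synthase transcribed in the other direction, and 182 exonic bases of the genes overlap. Atp5j stood at 579.6, 657.3 and 481.4 FPKM in control, unaffected and affected offspring, a log2 ratio of -0.27 for affected against control and -0.45 for affected against unaffected. As deposited, the genes of this head-to-head pair thus lay on opposite sides of 0 in both comparisons. No ratio of Atp5j with the length trend subtracted is given here. Whether strand was used in the counting is not given in the sources used here, and without it reads from the overlapping bases cannot be assigned. The partner subunit gene Gabpb1 was more abundant than Gabpa, at 21.8, 24.5 and 22.1 FPKM. Gabpb1 exceeded Gabpa 2.13 times in control offspring, 2.43 times in unaffected offspring and 1.88 times in affected offspring.

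Esrra, for the orphan receptor ERRα (chr19:6910977-6921813, minus strand), had the widest range of the 9 genes, with the highest group 1.24 times the lowest. It stood at 9.44 FPKM in control, 10.5 FPKM in unaffected and 8.49 FPKM in affected offspring. The affected group was lowest and the unaffected group highest. The log2 ratio of affected against unaffected was -0.31 (counting SE 0.048), an FPKM ratio of 0.809 and percentile 19.8 of all loci. That of affected against control was -0.15 (counting SE 0.051), and that of unaffected against control 0.15 (counting SE 0.050). With the trend by transcript length described below subtracted, the first of these became -0.19, within 1.2-fold. Esrra overlaps Trmt112 by 73 exonic bases and shares its span with it and with Prdx5, whose log2 ratios of affected against unaffected were -0.22 and -0.56. The related receptor Esrrg differed in the other direction, at 3.64, 3.67 and 4.41 FPKM in control, unaffected and affected offspring. The level of Esrra was 2.60 times that of Esrrg in control, 2.86 times in unaffected and 1.93 times in affected offspring. Esrrb was near the floor, at 0.107 to 0.121 FPKM.

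Yy1 (chr12:108792973-108820148, plus strand), which can act as activator or repressor, had the narrowest range, with the highest group 1.05 times the lowest. Its levels of 37.3 FPKM in control, 37.1 FPKM in unaffected and 38.9 FPKM in affected offspring gave log2 ratios of 0.060 (counting SE 0.014) and 0.067 (counting SE 0.014) for affected animals against control and unaffected animals. Both turned sign with the length trend subtracted, to -0.11 and -0.18. Unaffected and control offspring differed by -0.0072 (counting SE 0.015).

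Of the 4 genes that act in the matrix, 3 were lower and 1 was higher in affected offspring in the deposited values, a pattern that did not hold with the length trend removed. Tfam, for the packaging and activating factor TFAM (chr10:71225464-71238280, minus strand), was measured at 12.6 FPKM in control, 13.0 FPKM in unaffected and 11.9 FPKM in affected offspring. Tfb1m, for the ribosomal RNA methyltransferase (chr17:3519256-3557781, minus strand), stood at 7.24, 7.35 and 6.55 FPKM in the same order. Tfb2m, for the initiation factor (chr1:179528055-179546267, minus strand), stood at 21.5, 22.1 and 20.2 FPKM. In each of these 3 genes the affected group was lowest and the unaffected group highest. The log2 ratios of affected against control were -0.085 (counting SE 0.031) for Tfam, -0.14 (counting SE 0.075) for Tfb1m and -0.095 (counting SE 0.032) for Tfb2m. Against unaffected offspring they were -0.13, -0.17 and -0.13. With the trend by transcript length described below subtracted, Tfb1m turned to 0.029 against control and 0.12 against unaffected offspring. With median transcript length used for that trend, Tfam turned to 0.18 and 0.27. The proportions among the 3 were close in the groups: Tfam was 0.587, 0.588 and 0.591 of Tfb2m in control, unaffected and affected offspring, and Tfb2m was 2.98, 3.01 and 3.08 times Tfb1m.

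Polrmt, for the mitochondrial RNA polymerase itself (chr10:79736123-79746581, minus strand), went the other way. It stood at 5.26 FPKM in control, 5.31 FPKM in unaffected and 5.89 FPKM in affected offspring, with the affected group the high one. Its log2 ratio was 0.16 (counting SE 0.049) against control and 0.15 (counting SE 0.048) against unaffected offspring. Tfam was thereby 2.40 times Polrmt in control, 2.45 times in unaffected and 2.02 times in affected offspring, and Tfb2m 4.09, 4.16 and 3.42 times. The deposited span of Polrmt, 672.3 kb long, is also given for 46 other loci on chromosome 10 that the assembly joined, and that of Tfb1m also for Tiam2 and Cldn20. Tfb1m and Tiam2 overlap by 142 exonic bases on opposite strands, and the log2 ratio of Tiam2 was 0.20 for affected against control.

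Genes that the regulators work with and work on were described by 4 lists. The first holds coactivator partners and upstream regulators: kinases of the AMPK pathway, sirtuins and other enzymes that modify proteins, corepressors and coactivators, and nuclear receptors and factors that work with PGC-1α or control its gene. The 28 listed genes were found, and 24 of them reached 1 FPKM. In affected against control offspring 22 of the 24 were higher and 2 lower, with a median log2 ratio of 0.17, and 9 were past 1.2-fold, each as higher, where 17.9% of all loci were higher and 34.0% past the fold in either direction. Ppard, a nuclear receptor of fatty acid oxidation, had the largest ratio at 0.45 (4.35, 4.64 and 5.96 FPKM in control, unaffected and affected offspring). Hcfc1, a transcriptional coregulator, followed at 0.43 (21.3, 18.6 and 28.6 FPKM), and its ratio of affected against unaffected was 0.62. Mef2d, a MADS-box factor that activates the Ppargc1a promoter in muscle, stood at 0.42 (17.1, 16.0 and 22.8 FPKM). The lower genes were Prmt1, a methyltransferase of PGC-1α, at -0.24 and the mitochondrial deacetylase Sirt3 at -0.22. Against unaffected offspring, 20 of 24 were higher and the median was 0.23, with 11 genes past 1.2-fold as higher and 2 as lower, beside 25.5% and 23.3% of all loci. Among the kinases, Prkaa1, Prkaa2 and Stk11 had ratios of 0.11, 0.15 and 0.17 against control. With the length trend described below subtracted these became -0.015, -0.069 and 0.22. The list then had a median of 0.053 with 13 of 24 above 0 against control. Against unaffected offspring its median was 0.054 with 17 of 24 above 0.

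The second list holds further genes of mitochondrial transcription and RNA maturation, of which 21 of 22 reached 1 FPKM. In affected against control offspring 15 were lower and 6 higher, with a median of -0.19, and 7 were past 1.2-fold, each as lower, beside 16.0% of all loci. Slirp, which stabilises mitochondrial messenger RNA together with LRPPRC, was lowest at -0.48 (141.2, 148.3 and 101.5 FPKM in control, unaffected and affected offspring). Its partner Lrpprc stood at 0.012 (23.4, 20.8 and 23.6 FPKM). Hsd17b10, a subunit of mitochondrial RNase P, stood at -0.42, the ribosomal RNA methyltransferase gene Mrm2 at -0.41, and Tefm, the elongation factor of POLRMT, at -0.39 (7.61, 8.83 and 5.80 FPKM). Tefm and Polrmt, which encode parts of the same elongating complex, therefore lay on opposite sides of 0. Against unaffected offspring 16 of 21 were lower, the median was -0.29, 12 were past 1.2-fold as lower beside 23.3% of all loci, and the ratio of Tefm was -0.61. With the length trend described below subtracted, 2 genes were past 1.2-fold as lower against control. Against unaffected offspring 6 were past it as lower and 1 as higher, and Tefm stood at -0.29. Of all loci, 17.3% and 27.9% were then past it in either direction.

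Of the 19 genes of mitochondrial DNA replication and upkeep, 11 were lower and 8 higher in affected than in control offspring, with a median of -0.044. The 4 genes past 1.2-fold were lower, beside 16.0% of all loci. Mrpl12, a ribosomal protein that also binds POLRMT, had the largest ratio at -0.40 (178.1, 212.6 and 134.7 FPKM in control, unaffected and affected offspring) and stood at -0.66 against unaffected offspring. The nuclease gene Endog stood at -0.28 and the deoxyguanosine kinase gene Dguok at -0.28. The polymerase gene Polg, the helicase gene Twnk and the ligase gene Lig3 stood at 0.17, 0.097 and 0.22. With the length trend subtracted, Endog stood at -0.026, Dguok at -0.033, Polg at -0.050 and Lig3 at 0.055, each inside 1.2-fold and Polg with the opposite sign. Against unaffected offspring 15 of 19 were lower, with a median of -0.11.

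The last list holds 13 respiratory and heme synthesis genes known as targets of NRF-1 or GABP. In affected against control offspring each of the 13 was lower, with a median of -0.40, and 8 were past 1.2-fold, beside 16.0% of all loci that were lower past it. When the trend by expression level was subtracted the median was -0.18, with 12 of 13 lower. Then 4 were past 1.2-fold, beside 32.0% of all loci past it in either direction. Cox7c of complex IV stood at -0.61 (215.7, 228.1 and 141.2 FPKM in control, unaffected and affected offspring), Uqcrh of complex III at -0.58 (704.8, 762.1 and 469.9 FPKM) and Sdhd of complex II at -0.51 (99.0, 111.6 and 69.6 FPKM). Against unaffected offspring 12 were lower, each past 1.2-fold beside 23.3% of all loci, with a median of -0.54. The median became -0.19 when the level trend was subtracted. Then 6 genes were past 1.2-fold, beside 46.4% of all loci past it in either direction. As deposited, past 1.5-fold were Uqcrh at -0.70, Cox7c at -0.69, Sdhd at -0.68, Cox4i1 at -0.67 and Cox17 at -0.61. With the trend by transcript length described below subtracted, these became -0.22, -0.22, -0.33, -0.21 and -0.67. Alas1, the first enzyme of heme synthesis, was the exception at 0.014, and stood at -0.016 against control. In unaffected against control offspring 12 of the 13 were higher, by a median of 0.13, and with the trend by transcript length described below subtracted 8 were higher, by a median of 0.013. As deposited, the regulators thus had a median near 0 while the list of their targets was lower in affected offspring. With the length trend subtracted, the medians against control were -0.052 for the regulators and -0.17 for the targets. Against unaffected offspring they were -0.046 and -0.21. The difference between these medians was described and not tested.

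**Figure D3:**
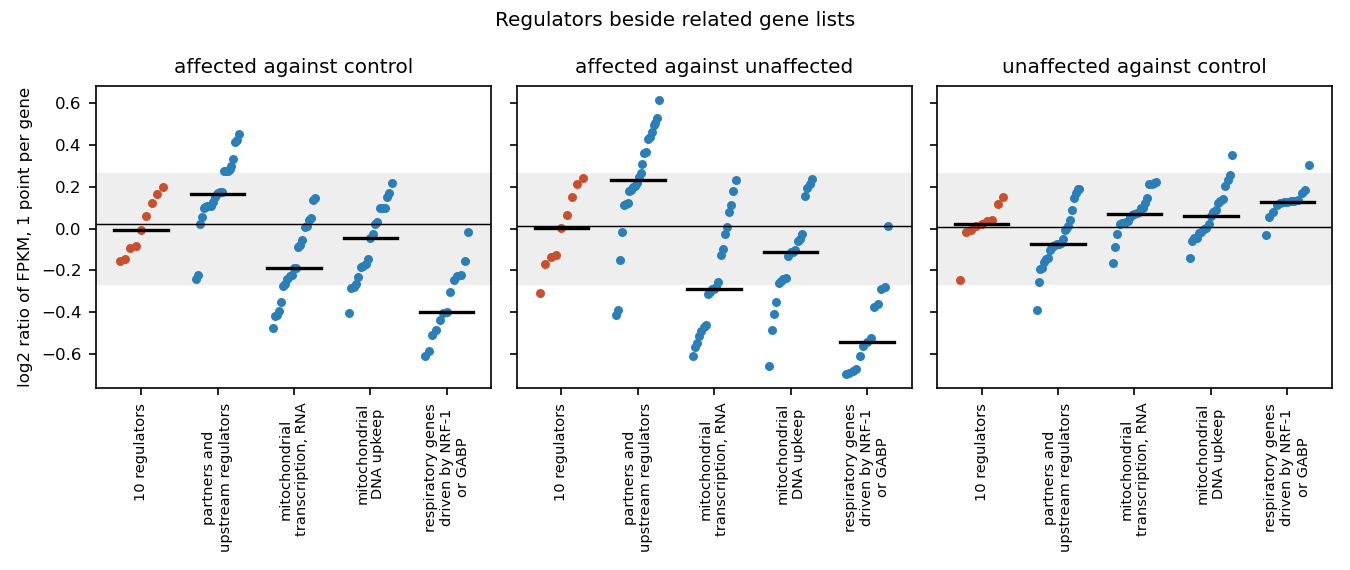
Log2 ratio of FPKM (vertical axis) of each gene with at least 1 FPKM in the 5 lists, 1 point per gene ordered by value, in the 3 comparisons. Thick bars are list medians, the thin line is the median of all loci and grey marks 1.2-fold; the respiratory genes have a median of -0.40 in affected against control offspring and the regulators -0.0070.

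Transcript length moved with these ratios. The longest coding transcript of each gene was taken from GENCODE M21 and was found for 80.3% of the 15548 loci. Across 12492 loci, which are not independent replicates, the log2 ratio of affected against control had a Spearman correlation of 0.55 with length, that of affected against unaffected 0.64 across 12484 loci, and that of unaffected against control -0.52 across 12480 loci. In loci with transcripts up to 1000 nucleotides the median ratio of affected against control was -0.31, and in those above 6000 nucleotides 0.22. The lists differ in length: the median was 1142 nucleotides for the respiratory genes by the longest transcript, 2701 for mitochondrial transcription and RNA maturation, 2840 for mitochondrial DNA upkeep, 5076 for the partners and 3755 for the 9 regulators.

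Among the 9 regulators themselves the rank correlation with length was 0.60 in affected against control, 0.87 in affected against unaffected and -0.72 in unaffected against control offspring, as a description over genes measured in the same libraries. By median transcript length the correlations were 0.45, 0.67 and -0.72 in the same order. Tfb1m, Esrra and Tfb2m, with 1402, 2242 and 2449 nucleotides, were lower in affected than in unaffected offspring, and Polrmt, Gabpa, Yy1 and Ppargc1a, with 3755, 4987, 6178 and 6464 nucleotides, were higher. Tfam, with a longest transcript of 4167 nucleotides, was the exception as the lower gene among the long ones. By median transcript length, 899 nucleotides, Tfam falls among the short ones. After a running median over 500 loci ordered by length was subtracted, no regulator was past 1.2-fold in any comparison, and of all loci with a length 17.3% were past it in affected against control, 27.9% in affected against unaffected and 5.38% in unaffected against control offspring. In affected against unaffected offspring the ratio of Tfam then became -0.22, that of Esrra -0.19, that of Yy1 -0.18, that of Tfb1m 0.12, that of Polrmt 0.091, that of Gabpa 0.015 and that of Ppargc1a -0.050. The value of Tfam rests on which transcript is counted, since the annotation also holds coding transcripts of 779 and 899 nucleotides. With the median length of a gene's transcripts in place of the longest, the ratio of Tfam became 0.27, past 1.2-fold and of the opposite sign.

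With the same trend subtracted, and so to be read beside these lower shares, the median of the respiratory genes went from -0.40 to -0.17 in affected against control offspring, with 12 of 13 still below 0 and 4 past 1.2-fold as lower. That of mitochondrial transcription and RNA maturation went from -0.19 to -0.14, with 16 of 21 below 0 and 2 past 1.2-fold instead of 7. That of the partners went from 0.17 to 0.053, with 13 of 24 above 0 and 3 past 1.2-fold instead of 9. That of mitochondrial DNA upkeep stood at -0.038, with 2 genes past 1.2-fold instead of 4, and 0 when median transcript length was used. In affected against unaffected offspring the median of the respiratory genes went from -0.54 to -0.21, with 4 past 1.2-fold instead of 12, and that of mitochondrial transcription and RNA maturation from -0.29 to -0.16, with 6 genes past 1.2-fold as lower instead of 12 and 1 as higher. That of the partners went from 0.23 to 0.054, with 17 of 24 above 0, 6 past 1.2-fold as higher and 1 as lower. That of mitochondrial DNA upkeep went from -0.11 to -0.086, with 4 past 1.2-fold as lower. By median transcript length it was -0.016, with 2 past 1.2-fold as lower and 1 as higher. Single genes differed in how far they moved in affected against control offspring: Ppard stood at 0.42 and Slirp at -0.46, near their deposited ratios, while Hcfc1 went to 0.20, Mef2d to 0.27, Prmt1 to -0.16, Sirt3 to -0.084, Hsd17b10 to -0.14, Tefm to -0.20, Lrpprc to -0.099 and Mrpl12 to -0.21. Of the respiratory genes, Cox7c went to -0.28, Uqcrh to -0.25 and Sdhd to -0.30, and Cox17 stood at -0.36. The longest transcripts used for Slirp and Cox17 have 2701 and 3690 nucleotides. As for Tfam, their values rest on which transcript is counted, and those by median transcript length are not given here. What part transcript length has in the ratios of the regulators and of their targets was not tested.

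**Figure D4:**
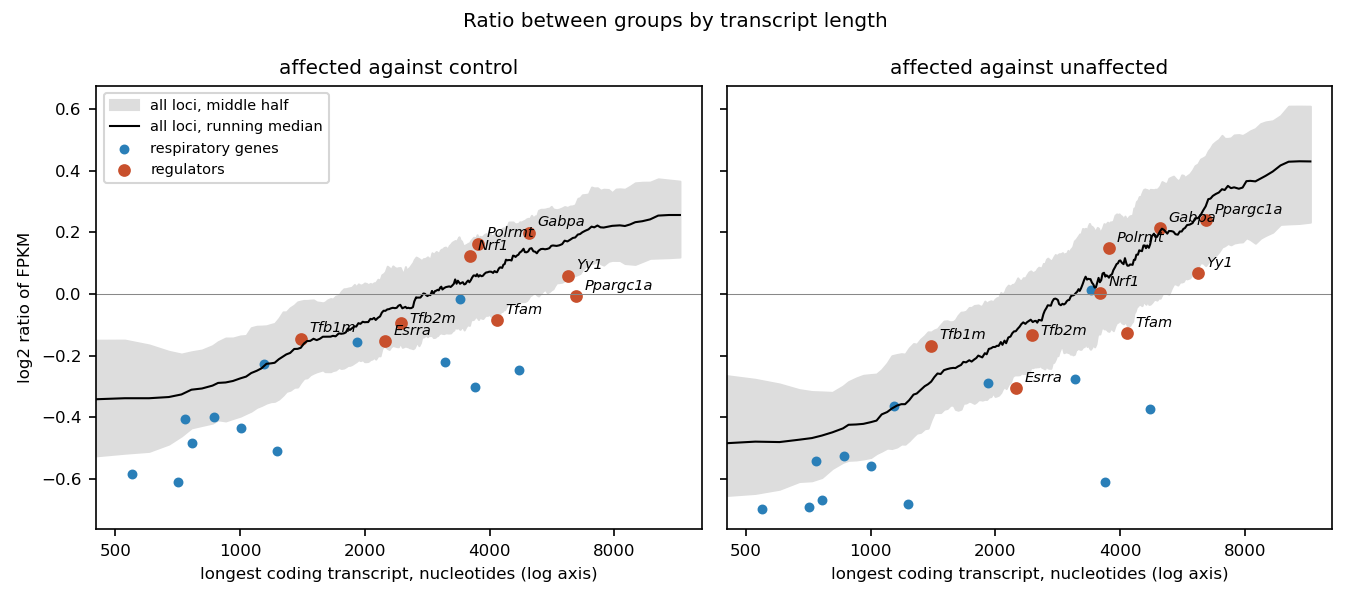
Log2 ratio of FPKM (vertical axis) against the longest coding transcript in nucleotides (horizontal log axis) for the regulators and for the respiratory genes, over the running median and middle 50% of all loci. Tfam and Yy1 lie below the line in both panels, and the ratio of Tfam to the trend is -0.22 in affected against unaffected offspring.

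The promoter letters gave a further view of the factors' candidate targets. Loci with the GABP letters in a promoter window had a median log2 ratio of -0.087 in affected against unaffected offspring (1985 loci), and loci without them 0.0097 (7875 loci). Their median transcripts were 2876 and 3286 nucleotides long, and with the length trend subtracted the medians were -0.029 and 0.0058. For the NRF-1 letters the medians were -0.036 in 738 loci with them and -0.0066 in 9122 loci without them, for the YY1 letters -0.037 and -0.0074, and for the ERR letters, held by 29 loci, -0.11 and -0.0085. Once the length trend was subtracted, the medians with the letters were -0.026 for NRF-1, -0.011 for YY1 and -0.0070 for ERR. In affected against control offspring the medians with and without the letters were -0.033 and 0.021 for GABP and -0.016 and 0.013 for NRF-1. They were 0.0017 and 0.012 for YY1 and -0.088 and 0.011 for ERR. Subtracting the length trend gave -0.012 and 0.0012 for GABP and -0.012 and -0.00054 for NRF-1. For YY1 it gave -0.00094 and -0.0013, and for ERR -0.067 and -0.0011. The GABP letters were present in 10 of 19 genes of mitochondrial transcription and RNA maturation, in 5 of 15 genes of mitochondrial DNA upkeep, in 4 of 10 respiratory genes and in 3 of 27 partners that had a promoter window, beside 20.1% of loci with at least 1 FPKM. The NRF-1 letters were present in 0, 2, 3 and 2 of the same genes, beside 7.49%. The 27 partners include genes below 1 FPKM, which these shares leave out.

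Markers of cell types also differed in level between the groups. The 7 markers of cortical projection neurons were higher in affected offspring in both comparisons, with a summed level of 745.6 FPKM in control, 656.5 FPKM in unaffected and 843.3 FPKM in affected offspring. Of 6 blood markers with at least 1 FPKM, 4 were lower in affected than in control and all 6 lower than in unaffected offspring, with summed levels of 5814, 7524 and 3651 FPKM. The choroid plexus list, with 5 of 5 genes higher in affected than in control and 2 of 5 higher than in unaffected offspring, summed to 995.3, 1321 and 1109 FPKM. That of ventral telencephalon, with 5 of 7 and 1 of 7 higher in the same comparisons, summed to 158.0, 186.8 and 172.7 FPKM, and that of cortical progenitors, with 6 of 7 and 4 of 7 higher, to 413.6, 431.4 and 489.0 FPKM. The lists of endothelium (5 of 6 higher than in control offspring), meninges and fibroblasts (3 of 6) and microglia (2 of 6), with 5, 4 and 2 higher than in unaffected offspring, each summed to less than 90 FPKM in each group. The 6 markers of cerebellum, midbrain and hindbrain were at or near 0, at most 0.0495 FPKM and with 3 of them at 0 in a group, while projection neuron markers such as Tbr1 stood at 62.1 to 98.3 FPKM. The median transcript was 3977 nucleotides long in the projection neuron list and 699 in the blood list, so that both lists also differed in the direction of the length trend. The part of these marker differences in the levels of the regulators was not tested.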

How the data were processed

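Paired-end 50-bp reads of TruSeq RNA libraries from 9 fetuses were aligned by the authors to mm10. The methods name STAR and also Bowtie with TopHat, and the submitters' processing notes name Bowtie2 2.2.4.0 with Cufflinks and Cuffdiff. The deposited FPKM values are the authors' Cufflinks-suite estimates, 1 per group and locus over 3 animals, and 0 columns hold single animals. The authors' fold changes, test statistics, p-values and q-values in the same table were not used.

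Log2 ratios of FPKM were computed without pseudocount for loci with a mean of at least 1 FPKM, in Python with pandas. A ratio of at least 1.2-fold stands in for a call, and no p-value was computed. Counting errors rest on the step that 1 fragment makes, read from 12 control, 10 unaffected and 27 affected values at that step among 355 single-exon loci, with 200 nucleotides taken off each transcript's length. They cover counting error only. By the same steps, 1 fragment in 1 library came to 0.0130, 0.0117 and 0.00973 FPKM for 1 kilobase of usable length in control, unaffected and affected offspring, so that the affected libraries were the deepest on average. Gene positions and lengths are from GENCODE M21, and promoter sequences from RefSeq (GRCm38.p6). The removal of length trends and the step estimate were tested on simulated data.

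The members and lists were chosen with earlier results of these data known. Of each list, the 3 genes with the largest absolute ratio of affected against control, and genes past 1.5-fold, are named by rule. Pprc1, Gabpb1, Esrrg, Esrrb, Prkaa1, Prkaa2, Stk11, Prmt1, Sirt3, Lrpprc, Polg, Twnk, Lig3, Alas1, Nrip1 and Dna2, and the genes that overlap a member, were named after their values were seen. Alternatives were other centring, pseudocounts of 0.1 and 1, other level filters and folds, and removal of trends with length and level. The use of median transcript length was added after seeing the data.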

Additional observations from a re-analysis of the deposited data

How the results depend on the processing

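No paired analysis was possible because the table gives 1 value per group, and for the same reason leaving out each replicate was not run. Centring on the median or upper quartile of all loci and pseudocounts of 0.1 and 1 moved none of the 120 values of single members beyond its 95% counting interval, though some by more than 1 counting SE. The 1 value past 1.2-fold, that of Esrra, kept its sign under the settings run. Other members did not all keep theirs. Nrf1 in affected against unaffected offspring also turned to -0.0076 with centring on the median and to -0.029 with the level trend removed, so that 4 members were higher and 5 lower. In affected against unaffected offspring the opposite sign was taken by Ppargc1a (-0.050), Nrf1 (-0.043), Yy1 (-0.18) and Tfb1m (0.12) with the trend by longest transcript removed, and by Tfam (0.27) with that by median length. In affected against control offspring it was taken by Yy1 (-0.11) and Tfb1m (0.029), and by Tfam (0.18) with median length. In unaffected against control offspring it was taken by Gabpa (0.037), Tfb1m (-0.080), Tfb2m (-0.0030) and Yy1 (0.077), and by Tfam (-0.073) with median length. The number of members past the fold depended on the fold: at 1.1-fold it was 4 in affected against control, 5 in affected against unaffected and 2 in unaffected against control offspring, where 62.6%, 72.2% and 40.6% of all loci passed. In affected against unaffected offspring it was 0 at 1.5-fold and 0 with the trend by length removed, against 1 as reported. The median of that comparison was -0.061 with a filter at 5 FPKM, which leaves out Ppargc1a. With the length trend removed, 5, 7 and 1 of 9 members moved beyond their 95% counting interval in the 3 comparisons, in the order above. With the level trend removed Gabpa alone moved beyond that interval, to 0.13 in affected against control and 0.15 in affected against unaffected offspring. The level trend also moved the lists: the respiratory medians came to -0.18 and -0.19 in these comparisons. In affected against unaffected offspring 8 of 19 genes of mitochondrial DNA upkeep were past 1.2-fold as lower. Of all loci, 46.4% were then past it in either direction.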

Other observations

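Unaffected and control offspring were also set side by side in the 4 lists around the regulators. The partners and upstream regulators had a median log2 ratio of -0.074, with 17 of 24 lower, and the corepressor gene Nrip1 was the lowest at -0.39 (7.03 FPKM in control and 5.37 FPKM in unaffected offspring). The genes of mitochondrial transcription and RNA maturation had a median of 0.071, with 18 of 21 higher and none past 1.2-fold, a fold that 17.3% of all loci passed. Those of mitochondrial DNA upkeep had a median of 0.060, with 12 of 19 higher, but 0.0020 with 7 of 14 higher among those with at least 5 FPKM, and the nuclease and helicase gene Dna2 stood highest at 0.35 (1.53 and 1.95 FPKM). The respiratory genes had a median of 0.13, and Cox17, the copper chaperone of complex IV, stood highest at 0.31 (50.8 and 62.9 FPKM). With the trend by transcript length subtracted, the medians were -0.028 for the partners, 0.029 for mitochondrial transcription and RNA maturation, 0.045 for mitochondrial DNA upkeep and 0.013 for the respiratory genes. This comparison shares its control group with that of affected against control offspring and its unaffected group with that of affected against unaffected offspring.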
